A study of Caenorhabditis elegans with 30 samples.

Results

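The twk genes of C. elegans encode K2P potassium channels, membrane proteins in which each subunit carries a pair of pore loops. All genes of the deposited expression table whose public name begins with twk- were taken, 44 of 46170 genes. The rule used names only and no measured value. Of the 44 members, 10 lie on the X chromosome and 34 on the autosomes, chromosomes I and II carrying 5 each, III 7, IV 3 and V 14. Of these, 8 X-linked and 28 autosomal members had a mean above 1 RPKM over the 4 groups, where RPKM is the read count scaled by transcript length and by library size. The remaining 8 members (twk-4, twk-6, twk-20, twk-36, twk-37, twk-44, twk-45 and twk-47) stayed below that value, and ratios of such low values are not counted in the comparisons.

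The study asked how the histone acetyltransferase MYS-1 and acetylation of histone H4 at lysine 16 (H4K16ac) relate to expression of the X chromosome in whole L3 larvae grown for 24 h on plates. Messenger RNA was measured in 4 groups: N2 wild-type XX hermaphrodites (4 libraries), EKM71 dpy-21(e428) XX hermaphrodites (4 libraries), and XO animals of strain TY1072, which carry the X-linked allele sdc-2(y74) and, on chromosome V, her-1(e1520), fed either bacteria with the empty vector (5 libraries) or bacteria labelled mys-1(RNAi) (5 libraries). H4K16ac was mapped by ChIP-seq in N2 XX and in TY1072 XO larvae, with 3 ChIP and 3 input libraries in each background. DPY-21 is a member of the dosage compensation complex, which lowers expression of both X chromosomes in XX hermaphrodites. SDC-2 is needed to bring that complex to X, which in XO animals normally stays free of it, and HER-1 is a signal for male development. The strain is therefore XO by karyotype but develops as hermaphrodites, and both XO groups carry both alleles. XO and wild-type XX larvae therefore differed in karyotype and in strain, and those used for RNA also in food. These differences cannot be told apart. The labels of the ChIP libraries name no RNAi food.

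The deposited expression values are the authors' means over the libraries of a group, so no value below has a spread between replicates, and no difference was tested. Differences are described by their size, and a gene is called higher or lower where log2 of the ratio of (RPKM + 0.1) passed that of 1.5-fold. Read depth is not given in the files. The genes that define the strains checked the labels. In XO, her-1 was at 433.6 and 428.4 RPKM on vector and on labelled mys-1(RNAi), against 1.70 in wild-type XX, and sdc-2 was at 0.0509 and 0.0712 RPKM against 4.03. In contrast, dpy-21 RNA was at 30.1 RPKM in the dpy-21(e428) group and 29.6 in wild type. The RNA of mys-1 was higher, not lower, under the label mys-1(RNAi), at 51.7 RPKM against 15.7 on vector. The study describes MYS-1 protein as depleted under its RNAi conditions, from western blots that are not part of these files. Because the RNA goes against the label, the last group is named as the libraries labelled mys-1(RNAi). Of the marker genes listed for these whole larvae, all 12 of neurons, 10 of body wall muscle and 6 of epidermis passed the filter, as did 5 of 6 of intestine and 8 of 10 of germ line. The embryonic gut gene end-3 stayed at or below 0.071 RPKM in every group, and nos-2 and cpb-1 of the germ line were at 0.225 and 0.393 RPKM in the wild type. In such bulk samples, fewer cells of a type and less RNA per cell cannot be told apart.

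K2P channels pass potassium at rest and hold the membrane of neurons and muscle cells near its resting voltage. Because a functional channel is a dimer, its pore is lined by the selectivity filters of both loops of both subunits. C. elegans has an unusually large set of these genes, and many of them are known from expression in small groups of neurons or in muscle. TWK-18 is a body wall muscle channel whose gain-of-function mutations paralyse the animal, and TWK-7 acts in motor neurons to restrain locomotion.

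The family's defining feature was looked for in the annotated proteins, translated from the coding exons of the longest form of each gene. These were between 281 and 1720 residues long, with a median of 556. The filter signature (threonine, any residue, glycine, then tyrosine, phenylalanine or leucine, then glycine) was found at 2 positions in 33 of the 44 members, at 1 in 8 and at none in 3, namely twk-16, twk-47 and twk-49. With serine or proline also accepted at the first position, a choice made after the proteins were seen, 35 members had 2 matches, 3 had 3, 3 had 1 and 3 had none. The coding DNA of the signature is shown for an X-linked member that is among the highest (twk-18), for another X-linked member in which the strict signature occurs once (twk-17) and for an autosomal member with a known mutant (twk-7). Sequences are from the RefSeq copy of WBcel235 and read 5′ to 3′ on the coding strand. Each sequence begins 1 codon before the signature and ends 1 codon after it. Capitals mark the last 3 codons of the signature, and all other codons are in lower case.
twk-18, first signature, X:8989369-8989756, plus strand, exons joined over an intron: acaactattGGTTACGGAaac
twk-18, second signature, X:8990236-8990256, plus strand: acaaccatcGGTTTTGGAgac
twk-17, X:7601884-7601904, minus strand: acaacaattGGATTGGGAaat
twk-7, first signature, III:8636352-8636372, minus strand: actaccatcGGATACGGTaat
twk-7, second signature, III:8635507-8635573, minus strand, exons joined over an intron: actactgtcGGGTTTGGCgac
The first glycine codon of the capitals is followed by TAC in the first signature of twk-18 and of twk-7, by TTT in the second, and by TTG in twk-17. These codons read tyrosine, phenylalanine and leucine.

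Identity between members was computed over whole proteins, and identity to the closest other member was as low as 30.1% (twk-37 with twk-22). The closest pairs by identity over the shorter protein were twk-26 (X) and twk-45 (III) at 70.9%, twk-33 and twk-34 (both V) at 65.1%, and twk-21 and twk-22 at 61.4%. The last pair lies in tandem on X, on the same strand and 2.27 kb apart (twk-21 at X:16299892-16304191, twk-22 at X:16306464-16314998). Another X-linked pair, twk-26 and twk-16, is separated by 26.3 kb on opposite strands and shares 21% of residues. Exonic stretches of read length (50 bases) with an exact second copy in the genome were found only in twk-6, where they made up 12.6% of such stretches, and the other 43 members held none. Overlap with genes of other kinds was more common. The libraries did not keep strand, and 19 of the 44 members shared exonic bases with another gene, 7 of 10 on X and 12 of 34 on the autosomes. The shared part exceeded 10% of the exonic bases in 3 of them: twk-4 (69.3%), twk-49 (29.4%) and twk-28 (14.3%). A smaller share does not make a level certain, because the reads concerned also depend on the level of the other gene. For example, twk-22 shares 2.7% with T01B4.3, which was at 40.6 RPKM in wild-type XX. The part of such overlaps in the levels was not tested.

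Expression of the family was concentrated in a few members. Summed over the 44 genes, RPKM was 284.3 in wild-type XX, 366.7 in dpy-21(e428), 336.9 in XO on vector and 339.7 in XO labelled mys-1(RNAi). The 5 members highest by the mean of the 4 groups held 47.3, 49.4, 44.5 and 44.4% of that sum. These were twk-18, twk-49, twk-8, twk-13 and twk-48, a set fixed by that mean and not by the order within each group. In dpy-21(e428), twk-17 (17.5 RPKM) was above twk-13 (14.8). In XO on vector, twk-7 (15.4 RPKM) and twk-34 (14.3) were above twk-48 (12.8), and so they were in XO labelled mys-1(RNAi). On this scale per length, twk-18 (X) was at 26.1 RPKM in wild-type XX, 61.5 in dpy-21(e428), 47.8 in XO on vector and 44.7 in XO labelled mys-1(RNAi). In the wild type it stood below twk-49 and twk-8, and it came first in the other groups.

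The autosomal gene twk-49 (II:6492785-6499167) was at 41.7, 51.4, 42.1 and 41.0 RPKM in the same order. Of its exonic bases, 27.4% also belong to T28D9.1 on the opposite strand, which was at 371.6, 450.0, 468.0 and 474.6 RPKM. The level of twk-49 is uncertain for that reason. The values of twk-8 (IV) were 27.8, 34.8, 28.8 and 30.8 RPKM, those of twk-13 (V) 19.3, 14.8, 18.3 and 20.2 RPKM, and those of twk-48 (III) 19.4, 18.7, 12.8 and 14.2 RPKM. Of the exonic bases of twk-13, 2.31% also belong to R04F11.2 on the opposite strand, which was at 1134, 1081, 1127 and 1071 RPKM. The level of twk-13 is therefore uncertain too. Apart from twk-18, none of these abundant members differed by 1.5-fold between any compared groups except twk-48, which was lower in XO.

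Among members with known mutants, twk-7 (III) was at 8.98, 9.39, 15.4 and 14.4 RPKM, so both XO groups were above both XX groups. In twk-46 (V) the values were 7.48, 8.998, 8.93 and 7.48 RPKM, in twk-2 (II) 6.40, 5.08, 5.98 and 5.78 RPKM, and in twk-40 (III), which acts in motor circuit neurons, 5.19, 5.52, 5.23 and 4.98 RPKM. These last 3 genes stayed below a 1.5-fold difference in every comparison.

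Between the chromosomal classes, the median of the 8 X-linked members was 4.21, 6.11, 4.30 and 4.01 RPKM and that of the 28 autosomal members 5.18, 6.27, 6.61 and 6.80 RPKM. Over all genes above the same filter the medians were 8.64, 13.1, 9.48 and 9.62 RPKM for 2512 X-linked genes and 11.96, 12.1, 14.05 and 14.5 RPKM for 12846 autosomal genes. In each class and group, the median twk gene was thus below the median gene. The summed RPKM of the 10 X-linked members was 60.8, 107.8, 77.3 and 74.0.

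**Figure D1:**
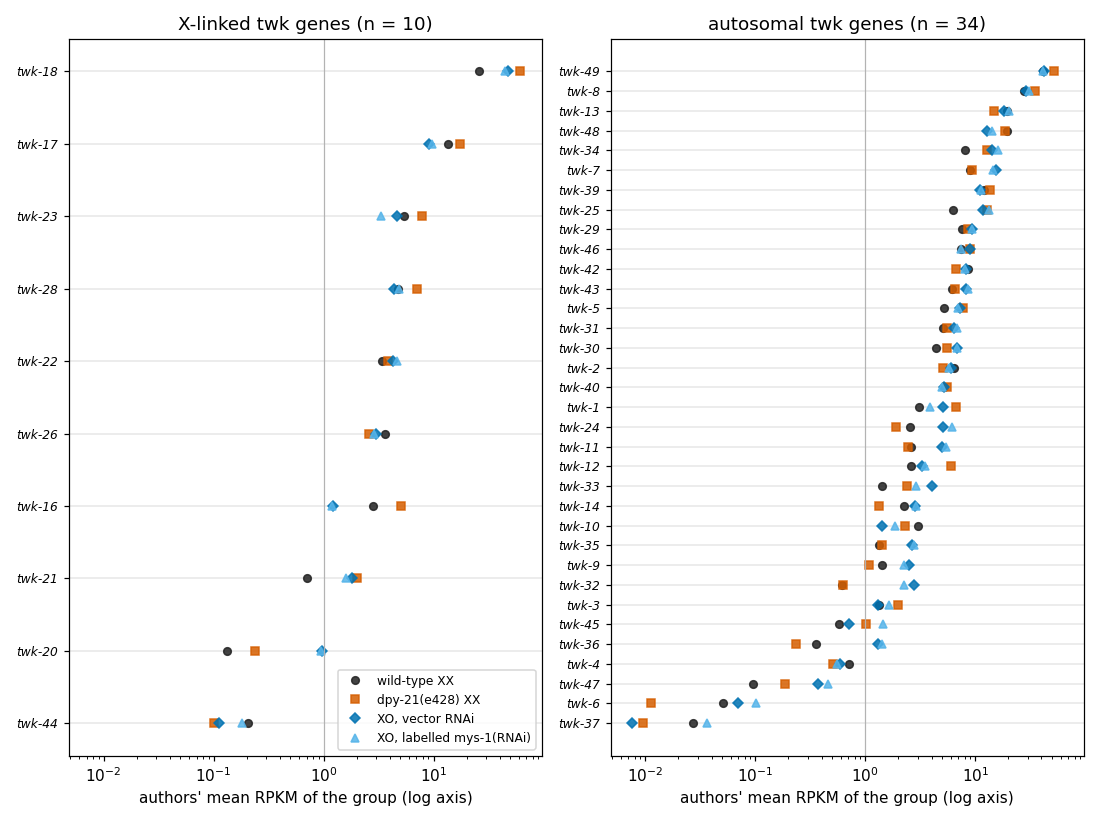
Mean RPKM of each twk gene in the 4 groups on a log axis, X-linked members on the left and autosomal members on the right, ordered by their mean over the groups. Each symbol is the authors' mean of a group, without an error; the grey line is the filter of 1 RPKM, and twk-18 leads the X-linked members with 26.1 to 61.5 RPKM.

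The first comparison asked how the members responded when dosage compensation was disturbed by dpy-21(e428) in XX larvae. X-linked twk genes were higher as a group, much as the X chromosome was. Of the 8 members, 7 had a ratio above 0 on the log2 scale, and their median log2 ratio was 0.55, against 0.57 over all X-linked genes, 83.2% of which were above 0. Called higher were 3 of 8 (twk-21, twk-18 and twk-16), beside 49.2% of all X-linked genes, and 0 were called lower, beside 6.17%.

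The largest ratio belonged to twk-21, which was at 0.70 RPKM in the wild type and 2.02 in dpy-21(e428), a log2 ratio of 1.41. Next came the muscle channel gene twk-18, whose change from 26.1 to 61.5 RPKM is a log2 ratio of 1.23 and accounts for most of the gain in the summed RPKM of the X-linked members. In twk-16 the level was 2.79 RPKM in the wild type and 5.10 in the mutant, a log2 ratio of 0.85. The tandem neighbours twk-21 and twk-22 were unlike, since twk-22 was at 3.37 and 3.85 RPKM, a log2 ratio of 0.19.

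Just under the limit were twk-28, at 4.80 and 7.11 RPKM (log2 ratio 0.56), and twk-23, at 5.36 and 7.83 RPKM (log2 ratio 0.54). The second most abundant X-linked member, twk-17, was at 13.7 RPKM in the wild type and 17.5 in the mutant, a log2 ratio of 0.36. In the opposite direction went only twk-26, at 3.62 and 2.58 RPKM (log2 ratio -0.47). Below the filter, twk-20 was at 0.133 and 0.238 RPKM and twk-44 at 0.204 and 0.101 RPKM.

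Autosomal members gave a median log2 ratio of 0.11, with 19 of 28 above 0, against -0.00012 over all autosomal genes, of which 48.1% were above 0. Called higher were 5 of 28, beside 14.4% of autosomal genes, and called lower was 1, beside 11.5%. The 5 were twk-12 (2.59 to 5.99 RPKM, log2 ratio 1.18), twk-1 (3.09 to 6.69 RPKM, 1.09), twk-25 (6.26 to 12.9 RPKM, 1.03), twk-33 (1.41 to 2.38 RPKM, 0.72) and twk-34 (8.15 to 12.8 RPKM, 0.65). The lower member, twk-14, was at 2.25 and 1.33 RPKM (log2 ratio -0.71). The largest autosomal ratios thus lay within the range of the X-linked ones. The difference between the X-linked and autosomal medians was 0.44 for twk genes and 0.57 for all genes. Restricted to the 3 X-linked and 19 autosomal members whose exons overlap no other gene, it was 1.05, and those 3 X-linked members are the ones called higher.

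**Figure D2:**
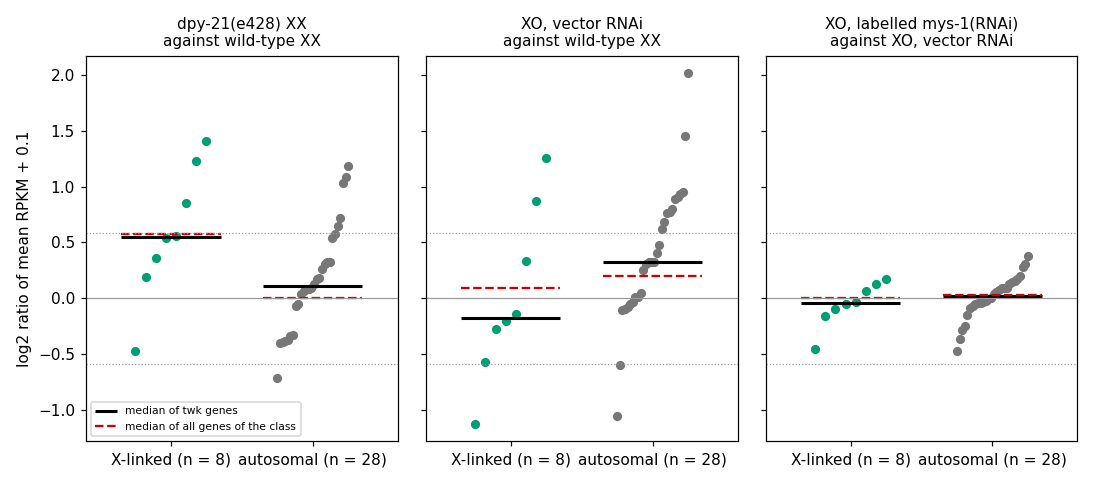
Log2 ratio of mean RPKM + 0.1 for the 8 X-linked and 28 autosomal twk genes above 1 RPKM in the 3 comparisons. Each point is a gene; black bars are medians of the twk genes, dashed red bars medians of all genes of that class, and dotted lines mark 1.5-fold. In dpy-21(e428) the X-linked median is 0.55 and the autosomal 0.11, in XO on vector they are -0.17 and 0.33.

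The second comparison set XO larvae on vector, which have a single X and lack SDC-2 function, against wild-type XX larvae. It shares its wild-type libraries with the first. Members of both classes went in both directions. Log2 ratios of the X-linked members ran from -1.12 (twk-16) to 1.26 (twk-21), with a median of -0.17 and 3 of 8 above 0. Over all X-linked genes the median was 0.09 and 55.4% were above 0. Called higher were 2 of 8 (twk-21 and twk-18), beside 27.7% of X-linked genes, and called lower was 1 (twk-16), beside 17.2%.

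The levels of twk-21 were 0.70 RPKM in wild-type XX and 1.81 in XO on vector, a log2 ratio of 1.26. For twk-18 they were 26.1 and 47.8 RPKM, a log2 ratio of 0.87. In twk-16 they were 2.79 and 1.22 RPKM, a log2 ratio of -1.12. Thus twk-16 had its highest group mean in dpy-21(e428) and its lowest in the XO groups, whereas in twk-18 and twk-21 the wild-type mean was the lowest of the 4.

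Of the other X-linked members, twk-17 fell just short of the limit, at 13.7 RPKM in XX and 9.17 in XO (log2 ratio -0.57). Smaller differences were found in twk-26 (3.62 and 2.97 RPKM, log2 ratio -0.28), twk-23 (5.36 and 4.64 RPKM, -0.21), twk-28 (4.80 and 4.33 RPKM, -0.14) and twk-22 (3.37 and 4.26 RPKM, 0.33). Below the filter, twk-20 was at 0.133 RPKM in XX and 0.966 in XO, and twk-44 at 0.204 and 0.111 RPKM.

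**Figure D3:**
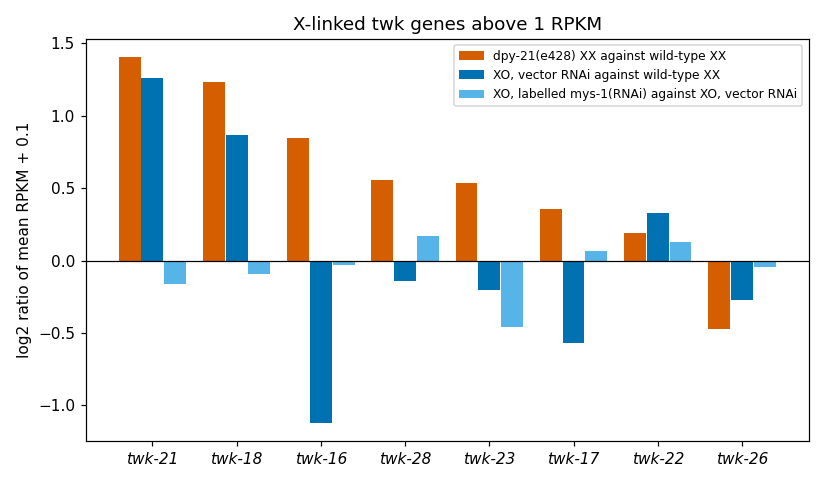
Log2 ratio of mean RPKM + 0.1 for each X-linked twk gene above 1 RPKM, with a bar for each of the 3 comparisons. The bars for twk-16 are 0.85 in dpy-21(e428) and -1.12 in XO on vector, while those for twk-21 (1.41 and 1.26) and twk-18 (1.23 and 0.87) lie on the same side. Both of these comparisons use the same wild-type libraries.

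Autosomal members had a median log2 ratio of 0.33 in XO on vector against wild type, with 21 of 28 above 0. The median over all autosomal genes was itself shifted, to 0.20, with 64.1% above 0. Called higher were 11 of 28, beside 28.6% of autosomal genes, and called lower were 2, beside 11%. Relative to the shifted autosomal median, 7 autosomal members were higher, beside 22.8% of autosomal genes centred in the same way, and 2 X-linked members (twk-16 and twk-17) were lower, beside 23.8% of X-linked genes. The 7 were twk-32 (0.609 RPKM in XX and 2.77 in XO, log2 ratio 2.02), twk-33 (1.41 and 4.03 RPKM, 1.46), twk-24 (2.57 and 5.06 RPKM, 0.95), twk-35 (1.34 and 2.65 RPKM, 0.93), twk-11 (2.59 and 4.93 RPKM, 0.90), twk-25 (6.26 and 11.7 RPKM, 0.89) and twk-34 (8.15 and 14.3 RPKM, 0.80). Of these, only twk-25 (IV) lies outside chromosome V, which holds 13 of the 28 members. Over all genes, chromosome V also had the highest median log2 ratio of the autosomes, at 0.28. The 4 that depended on the shift were twk-9 (log2 ratio 0.78), twk-7 (0.77), twk-1 (0.69) and twk-30 (0.62).

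Lower in XO were twk-10, at 3.03 RPKM in XX and 1.40 in XO (log2 ratio -1.05), and twk-48, at 19.4 and 12.8 RPKM (log2 ratio -0.60). Taken for each autosome, members above the filter had median log2 ratios of 0.62 (chromosome I, 3 members), -0.01 (II, 4 members), 0.01 (III, 5 members), 0.78 (IV, 3 members) and 0.40 (V, 13 members), against 0.17, 0.18, 0.17, 0.19 and 0.28 over all genes of those chromosomes. The X-linked minus autosomal difference of medians was -0.50 for twk genes and -0.11 for all genes. With only the 3 X-linked and 19 autosomal members free of exon overlap it was 0.39, the opposite sign. With members under 10% overlap, a restriction added after the data were seen, it was -0.53. The sign for twk genes therefore depended on which X-linked members were kept.

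Markers of body wall muscle moved with this comparison. Of 10 markers, 6 were higher and 0 lower in XO on vector, with a median log2 ratio of 0.72, and their summed RPKM was 4029 in wild-type XX, 4617 in dpy-21(e428), 6578 in XO on vector and 6416 in XO labelled mys-1(RNAi). Neuronal markers were higher in 2 of 12 with a median log2 ratio of 0.27, and their summed RPKM was 1046, 1140, 1321 and 1290. Over all X-linked and autosomal genes, 27.7 and 28.6% were higher in XO on vector and 17.2 and 11% lower, with medians of 0.09 and 0.20. Sums for epidermis markers were 449.3, 624.5, 629.7 and 595.1, for germ line markers 66.4, 50.6, 84.9 and 94.8, and for intestine markers 397.6, 362.6, 408.0 and 427.4. The part of these cell types in the levels of twk-18 and the other members was not tested.

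The third comparison set XO larvae labelled mys-1(RNAi) against XO larvae on vector. No twk gene above the filter was called: 0 of 8 X-linked members higher beside 6.89% of X-linked genes, 0 lower beside 6.21%, 0 of 28 autosomal members higher beside 6.62% of autosomal genes, and 0 lower beside 3.97%. The log2 ratios of the X-linked members ran from -0.46 in twk-23 (4.64 to 3.35 RPKM) to 0.17 in twk-28 (4.33 to 4.89 RPKM). F19D8.8, which shares 6.37% of the exonic bases of twk-23 on the opposite strand, was at 13.8 and 5.14 RPKM. Autosomal ratios ran from -0.47 in twk-33 (4.03 to 2.88 RPKM) to 0.38 in twk-10 (1.40 to 1.86 RPKM).

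In this comparison the levels of twk-18 were 47.8 and 44.7 RPKM, a log2 ratio of -0.10. Medians were -0.04 for the X-linked and 0.02 for the autosomal members, against 0.0031 and 0.03 over all genes of those classes. Since mys-1 RNA was itself higher in these libraries, no direction is drawn from the RNA for a loss of MYS-1. Below the filter, twk-45 was at 0.704 RPKM on vector and 1.46 in the labelled libraries.

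H4K16ac was next examined at the members. The deposited lists hold 8734 peaks in XX, with a median width of 1345 bp, and 15186 in XO, with a median width of 906 bp, called on pooled replicates, without heights. In XX, none of the 10 X-linked members had a peak within 500 bp upstream of its start, beside 21.6% of X-linked protein-coding genes, and no base of any of these genes lay in a peak, beside 25% of X-linked genes with any such base. The median X-linked gene likewise had 0% of its length in XX peaks. In XO, the promoter of 1 of 10 (twk-28) overlapped a peak, beside 45.4% of X-linked genes. Of the autosomal members, 7 of 34 had a promoter peak in XX, beside 46.9% of autosomal genes, and 14 of 34 in XO, beside 50.4%.

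Within the gene bodies, H4K16ac peaks covered part of 6 of the 10 X-linked members in XO, beside 63.3% of all X-linked protein-coding genes. The covered share was 46.5% in twk-28, 43.3% in twk-18, 31.1% in twk-20, 28% in twk-26, 4.29% in twk-23 and 4.20% in twk-17. No base of twk-16, twk-21, twk-22 or twk-44 lay in a peak of either background. The median over the 10 was 4.25%, against 16.8% over all X-linked genes in XO. Of the 3 X-linked members called in either of the first comparisons, only twk-18 was covered. It held peaks at X:8988260-8988726 and X:8990154-8990579, and a peak at X:8991204-8998103 ran into its 3′ end.

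**Figure D4:**
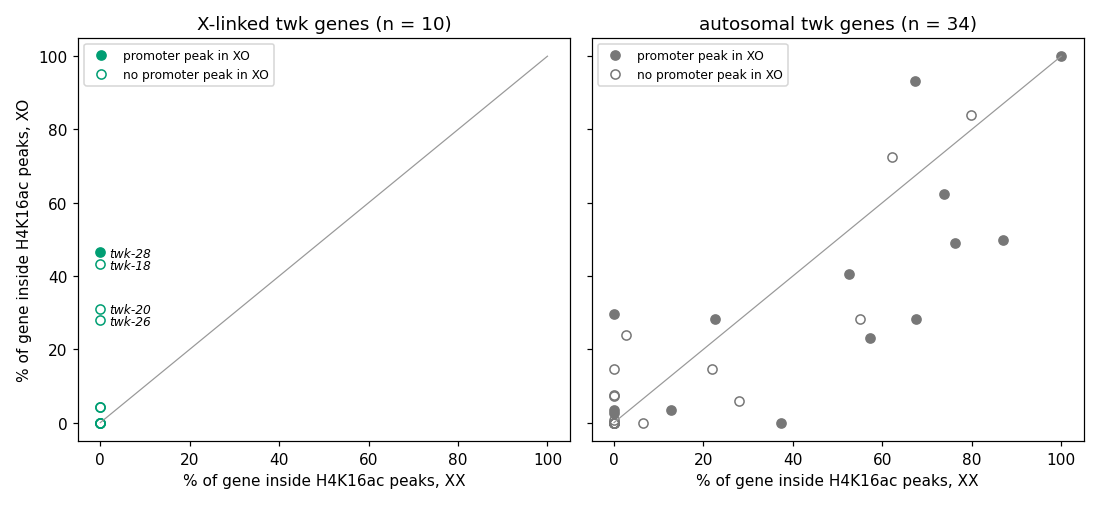
Percent of each twk gene's length that lies in H4K16ac peaks, in XX on the horizontal and in XO on the vertical axis. Each circle is a gene, filled where its promoter overlaps an XO peak; the line marks equal coverage. All 10 X-linked genes lie at 0% in XX, and twk-28 and twk-18 reach 46.5% and 43.3% in XO.

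Upstream sequence is shown for both of these genes. In twk-28 (X:4274719-4279344, minus strand), 173 of the 500 promoter bases lay in the peak at X:4279672-4279935. That peak also covers the start of ets-9, a divergent gene encoding an ETS-family factor that begins 358 bp away, and only 31 of the bases between the starts lay in it. The levels of ets-9 were 19.2 RPKM in wild-type XX, 27.7 in dpy-21(e428), 10.2 in XO on vector and 12.3 in XO labelled mys-1(RNAi). To which of the pair the peak belongs was not tested. The sequence reads from the start of ets-9 towards twk-28, with the peak in capitals. For twk-18, whose nearest XO peak is 132 bp from its start and inside the gene, the 250 bases before the start hold no peak base, and capitals mark GAGAG on either strand.
twk-28, X:4279453-4279702, minus strand: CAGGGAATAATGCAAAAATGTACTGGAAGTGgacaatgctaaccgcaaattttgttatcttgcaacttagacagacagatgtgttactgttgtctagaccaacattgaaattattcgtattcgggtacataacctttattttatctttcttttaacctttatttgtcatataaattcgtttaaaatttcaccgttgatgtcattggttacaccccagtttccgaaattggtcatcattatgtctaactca
twk-18, X:8987878-8988127, plus strand: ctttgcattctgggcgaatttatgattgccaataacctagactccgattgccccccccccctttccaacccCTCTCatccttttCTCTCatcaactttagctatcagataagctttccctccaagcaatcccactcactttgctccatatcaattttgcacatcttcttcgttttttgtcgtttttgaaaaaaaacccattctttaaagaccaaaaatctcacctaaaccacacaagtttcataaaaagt

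The 250 bases before each start were searched on both strands for 4 words, none of which contains another. The repeat GAGAG was in 4 of 10 X-linked members and in 39.0% of 2663 X-linked promoters of that length, and in 12 of 34 autosomal members and 33.8% of 16942 autosomal promoters. The E-box CACGTG was in 1 of 10 and 1 of 34, against 4.02 and 5.09%. The GATA-type word TGATAA was in 0 of 10 X-linked members, against 25.6%, and in 9 of 34 autosomal members, against 26.9%. The splice acceptor word TTTCAG was in 4 of 10 and 10 of 34, against 37.7 and 43.3%. These are descriptions of the letters in those windows.

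The autosomal promoter peaks divided as follows. Of the 34 members, 6 had a peak in both backgrounds, 8 in XO only, 1 in XX only (twk-32) and 19 in neither, beside 42.8, 7.56, 4.09 and 45.5% of autosomal protein-coding genes. In XO only were twk-1, twk-2, twk-5, twk-7, twk-39, twk-40, twk-45 and twk-49. In twk-2 and twk-45 all 500 promoter bases lay in an XO peak, in twk-40 377 and in twk-49 14. The share of the gene in peaks was larger in XO in 12 members, beside 23.3% of autosomal genes, and smaller in 12, beside 17.3%. The median was 4.52% in XX and 7.38% in XO, against 12.4 and 25.2% over all autosomal genes. The XO list holds more and narrower peaks on each of the 6 chromosomes, and the part of this in these counts was not tested.

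Chromosome V members were mixed in their distance from peaks. Of the 14, only twk-24 had a promoter peak in both backgrounds, and the starts of 5 lay under 2000 bp from an XO peak, whereas those of twk-33, twk-34, twk-36, twk-42 and twk-46 were between 21574 and 131432 bp from the nearest XO peak. Of these 5, twk-33 and twk-34 were higher in XO by over 1.5-fold and twk-42 (8.51 and 8.21 RPKM) and twk-46 were not, while twk-36 stayed below the filter (0.358 and 1.31 RPKM). Among members above the filter whose promoter gained a listed peak in XO, twk-1 and twk-7 were higher and twk-2, twk-5, twk-39, twk-40 and twk-49 were not. Both sets are small, beside 28.6% of all autosomal genes called higher in this comparison. A link between peaks and RNA was not tested. The gene with a promoter peak in XX only, twk-32, had the largest ratio of RNA in XO among members above the filter. That ratio starts from 0.609 RPKM in XX. An XO peak lay 621 bp from its start, outside the 500 bp promoter, and 5.92% of the gene lay in XO peaks.

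Other K2P genes, 3 in number, have other names for historical reasons and fall outside the name rule. Their levels are given in the same order of groups. The muscle channel gene sup-9 (II) was at 10.4, 9.56, 8.24 and 8.60 RPKM. For egl-23 (IV), known from egg-laying mutants, the values were 15.3, 13.1, 7.52 and 9.75 RPKM, a log2 ratio of -1.01 for XO on vector against wild type. For unc-58 (X), known from mutants with abnormal movement, they were 16.3, 21.2, 12.9 and 13.3 RPKM. Of the proteins that act with SUP-9, sup-10 (X) was at 4.31, 8.40, 3.88 and 4.06 RPKM, a log2 ratio of 0.95 in dpy-21(e428), and unc-93 (III) at 4.48, 3.46, 3.91 and 4.15 RPKM.

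Potassium channels of other families (voltage-gated, calcium-activated and inward rectifier) were compared from a list of 25, of which 24 passed the filter, 9 on X and 15 on autosomes. In dpy-21(e428), 2 were higher, both on X (kqt-2, log2 ratio 0.88, and irk-2, 0.66), and 1 was lower (kvs-3, -0.59). Over all X-linked and autosomal genes, 49.2 and 14.4% were higher and 6.17 and 11.5% lower. The median log2 ratio of the list was 0.24 on X and -0.35 on autosomes. It was 0.55 and 0.11 for twk genes, and 0.57 and -0.00012 for all genes. In XO on vector, 1 was higher (irk-3, 0.77) and 2 lower (shw-3, -0.97, and egl-2, -0.63), with medians of -0.22 on X and 0.02 on autosomes. For all genes of those classes the medians were 0.09 and 0.20, with 27.7 and 28.6% higher and 17.2 and 11% lower. Under the label mys-1(RNAi), 0 of 24 were called in either direction. Of all X-linked and autosomal genes, 6.89 and 6.62% were higher there and 6.21 and 3.97% lower.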

How the data were processed

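RNA-seq libraries were poly(A)-selected, unstranded and read as 50-base single ends. The authors aligned reads to WS235 with TopHat2 2.0.13, computed RPKM with Cufflinks 2.2.1, which divides multiply mapped reads by its rescue method, and deposited RPKM as group means. For ChIP-seq the authors aligned with Bowtie 1.1.1 and called broad peaks with MACS2 2.1.0 on the pooled replicates, and the deposited lists give positions only. A further deposited table holds the authors' log2 fold changes and adjusted p-values from DESeq2 1.6.3, which were not used. Groups followed the labels. A supplementary table of the study names another strain for 2 of the XO ChIP libraries, and the labels were followed there too.

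Log2 ratios used a pseudocount of 0.1 RPKM, and genes needed a mean above 1 RPKM over the 4 groups. A gene was called at 1.5-fold. With group means alone there was no test, no error and no interval, and the depth of each library is unknown from the files. Positions came from Ensembl release 115 of WBcel235, the assembly of WS235, which held 45871 of the 46170 identifiers, and 299 were left out. A promoter was the 500 bp upstream of the gene start, and an overlap was at least 1 bp. Scripts ran in Python 3.11.15 with pandas 2.3.3 and numpy 2.4.6 and were tested on simulated data.

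The genes named with values were every X-linked member, every autosomal member past 1.5-fold in a comparison, the 5 highest, members with known mutants, genes of the strains, and fixed lists of other channels and cell type markers. Members, lists and rules were chosen with earlier results of these data known. Alternatives were another pseudocount, filter, fold, centring, promoter definition and peak width, and members without exon overlap.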

Additional observations from a re-analysis of the deposited data

How the results depend on the processing

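No paired analysis was possible because the files hold group means without a column per library, and for the same reason no replicate could be left out. Of 97 alternative values, 79 stayed close to the reported value (within 1.5 times), 17 moved and 1 reversed. With members whose exons overlap no other gene, the X-linked minus autosomal difference of medians became 1.05 in dpy-21(e428) and, reversed, 0.39 in XO on vector, where 3 X-linked members remained. Without a filter on low values, 1 X-linked member (twk-44) was lower in dpy-21(e428), and 1 autosomal member (twk-45) was higher in the libraries labelled mys-1(RNAi). At a fold of 2, autosomal members numbered 3 higher and 0 lower in dpy-21(e428), and 2 higher and 1 lower in XO on vector, with 1 X-linked member higher. With a pseudocount of 1 RPKM, 0 autosomal members were lower in dpy-21(e428) and 1 in XO on vector. Centred on the autosomal median, 2 X-linked members were lower and 7 autosomal members higher in XO on vector. Counting peaks over the gene body gave 18 autosomal members in XX, 23 in XO and 6 X-linked members in XO. X-linked members with an XO promoter peak numbered 3 with promoters of 1000 bp and 0 with peaks of at least 500 bp.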
